A study of Mus musculus with 2 samples.

Results

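Mir137 is the single mouse gene of the microRNA miR-137. It was found as the row of the deposited count tables whose identifier, ENSMUSG00000065569.2, annotation M21 names Mir137, and it is 1 of 2202 listed miRNA genes. Small RNA of under 30 nt was sequenced from hippocampus. The mice were males of B6CASTF1/J, 2 months old, the first-generation hybrid of C57BL/6J and CAST/EiJ. The labels call the tissue a layer of hippocampus without saying which layer, and they name no treatment or mutation. There was 1 group with biological replicates 1 and 2, which carry separate biosample entries but share 1 donor entry, so the spread between them may not cover the spread between animals. No condition was compared. What can be compared is the level of Mir137 with that of other miRNA genes, and replicate 2 with replicate 1.

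A microRNA is cut from a hairpin precursor and guides Argonaute proteins to messenger RNAs that pair with its seed, bases 2 to 8 from the 5′ end. miR-137 is enriched in brain. In mouse it is known to act on Ezh2 in adult neural stem cells, on the ubiquitin ligase gene Mib1 in dendrite growth, and on presynaptic genes in hippocampal mossy fibres. In human, common variation at the MIR137 locus has been associated with schizophrenia.

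The sequences are given first because the counts cannot separate the arms of the hairpin. They are from RefSeq for GRCm38.p6 (mm10), and the strand is plus. In both mature products the capitals mark the seed. In the hairpin the capitals mark the 5p arm and then the 3p arm.
mmu-miR-137-3p: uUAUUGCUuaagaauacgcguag
mmu-miR-137-5p: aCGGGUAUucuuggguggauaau
Mir137 hairpin: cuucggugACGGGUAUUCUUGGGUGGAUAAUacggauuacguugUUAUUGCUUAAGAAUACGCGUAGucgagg

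The hairpin is 73 bases long and lies on chromosome 3 at chr3:118433857-118433929. The 3p product occupies positions 118433901 to 118433923 and the 5p product positions 118433865 to 118433887, each 23 bases long. Folded with RNAfold, the hairpin had a minimum free energy of -31.2 kcal/mol with 30 base pairs, and 20 bases of the 3p arm, all 7 seed bases among them, were paired. Per base this was -0.427 kcal/mol, near the median of -0.435 kcal/mol over the hairpins of the 401 detected genes. The 3p product is rich in A and U. Its GC content is 34.8%, against a median of 52.2% over 1674 distinct mature mouse sequences, of which 93 (5.56%) had the same or a lower GC content.

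The seed of miR-137-3p is its own among these sequences. Of the 1674 mature sequences, 1 had UAUUGCU at bases 2 to 8, and that was miR-137-3p. None of the other sequences had the same bases 2 to 7. The seed of the 5p product was likewise held by 1 sequence, its own.

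The whole 3p sequence was found in 3 of 141767 GENCODE transcripts, Mir137-201, Gm26871-201 and Gm26871-202, all from this locus, and its reverse complement was found in 0. The longest run of letters that the hairpin shared with any other listed miRNA gene was 11, with Mir383. For comparison, 87 of the 401 detected genes (21.7%) share 20 letters or more in a row with another listed miRNA gene. That matters because reads that mapped to several places, 42.6% of replicate 1 and 46.0% of replicate 2, were in no gene's count. How often reads of miR-137 matched the genome outside annotated transcripts was not tested.

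Mir137 lies in the noncoding gene Gm26871, on the same strand. The hairpin falls whole within exon 1 of transcript Gm26871-201 and within exon 3 of Gm26871-202, so it is exonic in both transcripts. The nearest protein-coding gene in the window of annotation examined is Dpyd, the first enzyme of pyrimidine breakdown, which lies on the same strand beyond a gap of 128199 bases after the hairpin. The nearest other listed miRNA gene, Gm24155, follows after a gap of 791 bases. Gm24155 had 0 counts in replicate 1 and 2 counts in replicate 2. The nearest one before it, Gm24811, lies 585204 bases away and had 0 counts in both libraries.

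**Figure D1:**
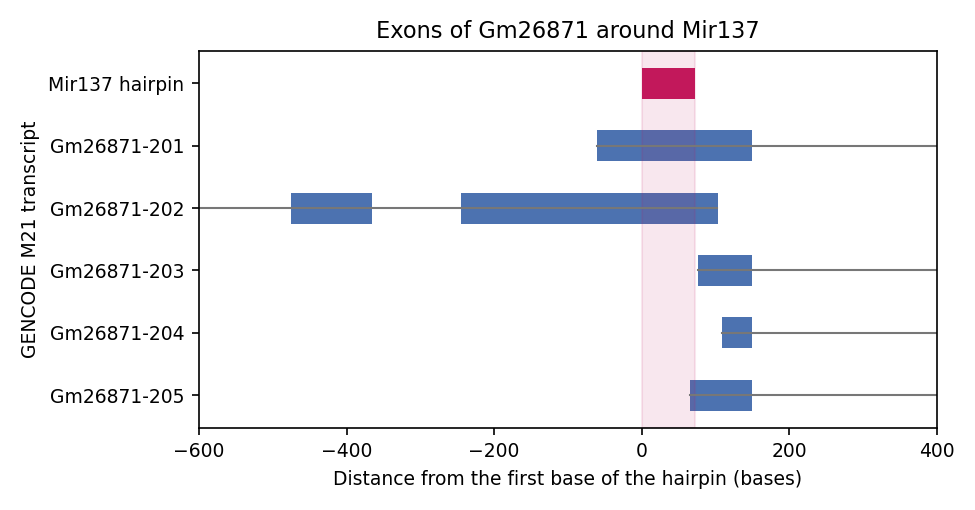
Exons (blue boxes) and introns (grey lines) of 5 Gm26871 transcripts of GENCODE M21 by distance in bases from the first base of the Mir137 hairpin (red box and shaded band). Gm26871-201 and Gm26871-202 hold the hairpin whole in an exon, and Gm26871-205, Gm26871-203 and Gm26871-204 start 65, 76 and 109 bases after its first base. Gm26871-206, which starts 23802 bases after it, lies outside the plot.

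By counted reads, Mir137 was among the most abundant miRNA genes of these libraries. Reads that mapped to several places are in no gene's count, so multi-copy genes may stand too low beside it. The share and rank of Mir137 given below are among counted reads only. It had 20199 counts in replicate 1 and 41549 counts in replicate 2, out of 2322520 and 3414105 counts on miRNA genes. Scaled to 1000000 such counts (CPM), this was 8697 CPM for replicate 1 (Wilson 95% interval 8578 to 8817) and 12170 CPM in replicate 2 (12054 to 12287). The mean was 10433 ± 2456 CPM (SD, n = 2), or 1.04% ± 0.246 of miRNA-gene counts. The intervals cover the counting error of 1 library only, with each read taken as independent. The reads carried no molecular identifier that would mark copies made by amplification, so the intervals may be too narrow.

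By mean CPM the gene ranked 18 of 2202, at rank 24 in replicate 1 and rank 16 in replicate 2. It stood 101-fold above the median detected gene in replicate 1 and 127-fold above it in replicate 2, where detected means 2 CPM or more in both libraries. In whole tissue, fewer cells of a type and less RNA per cell cannot be told apart. One read covers 1 mature product of similar length in every gene, so CPM was not divided by length.

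**Figure D2:**
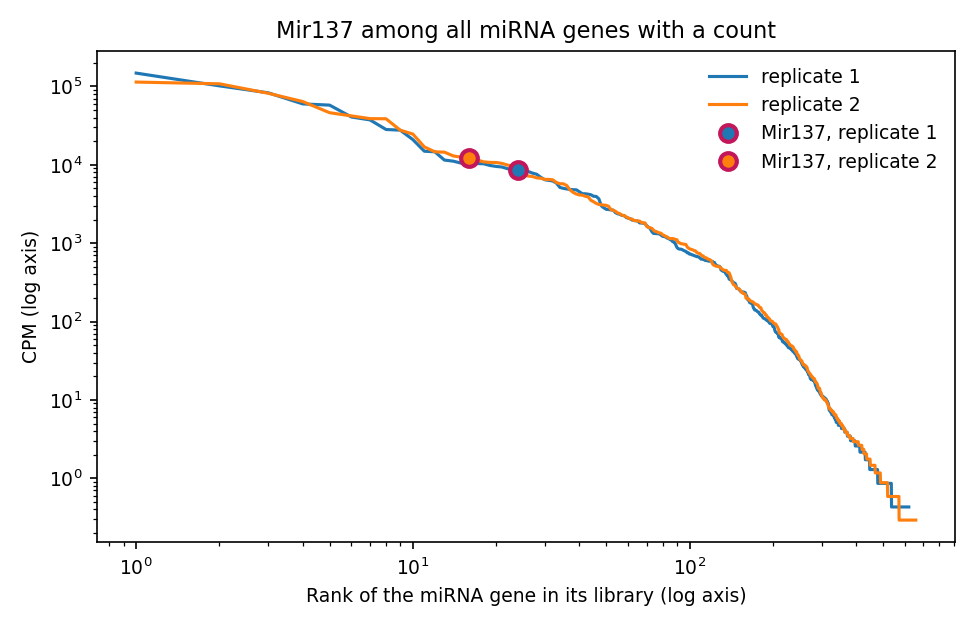
CPM of every miRNA gene with a count against its rank in its own library, both on log axes, for replicate 1 (blue) and replicate 2 (orange), with Mir137 as a ringed point. Mir137 sits at rank 24 with 8697 CPM in replicate 1 and at rank 16 with 12170 CPM in replicate 2, on the upper shoulder of both curves.

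All reads counted at the locus came from the strand of the hairpin. The opposite-strand column held 0 counts for Mir137 in both libraries. With 0 counted, a true value of up to 3 counts is allowed, or 0.0149% of the same-strand count in replicate 1 and 0.00722% in replicate 2. The column for both strands together gave the same 20199 and 41549 counts.

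In the order of levels Mir137 stood in a group of genes that the 2 libraries do not put in a fixed order. The 5 genes just above it by mean were Mir191, Mir132, Mir128-1, Mir328 and Mir29a, and the 5 just below it Mir26b, Mir330, Mir23a, Mir652 and Mir433. A ratio between Mir137 and another gene was held to exceed the replicate spread if its log2 had 1 sign in both libraries and averaged over 2 SD. Only Mir191 of these 10 met that rule. In replicate 1, 7 of the 10 lay above Mir137 and 3 below, whereas in replicate 2, 3 lay above and 7 below.

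Mir191 stood at 11485 CPM (replicate 1) and 14484 CPM (replicate 2), and Mir137 was 0.757-fold and 0.840-fold of it. Mir29a, whose family is known for acting on DNA methyltransferases, had 9358 and 11606 CPM, so Mir137 was lower than it in replicate 1 and higher in replicate 2. Mir433, a gene of the imprinted Dlk1-Dio3 domain, had 10384 and 8514 CPM. Mir137 thus stood below Mir433 in replicate 1 and above it in replicate 2. Mir26b, at 4999 and 14634 CPM, and Mir128-1, at 4518 and 16906 CPM, crossed Mir137 in the other direction.

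**Figure D3:**
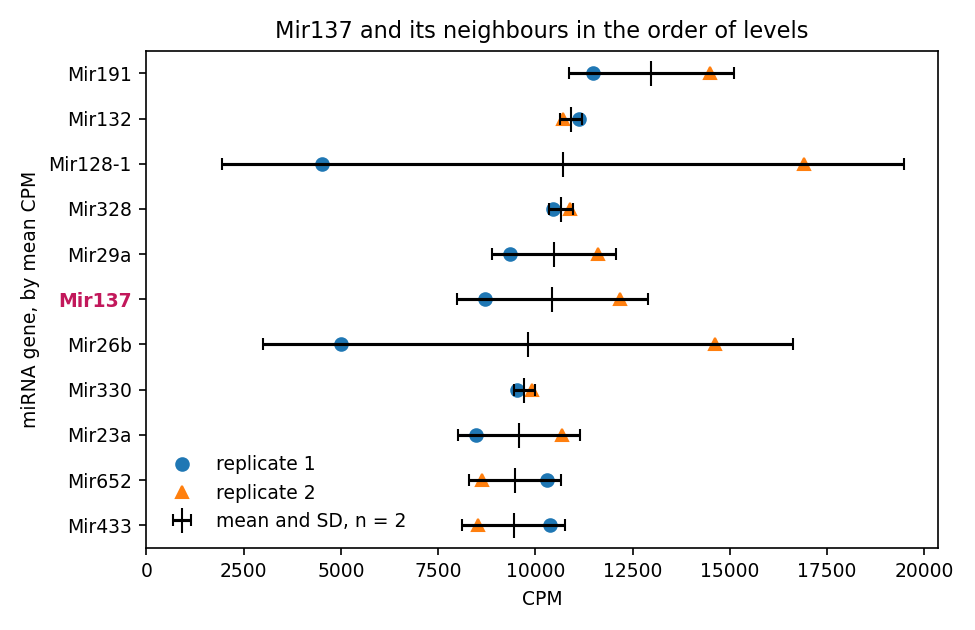
CPM of Mir137 and of the 5 genes above and the 5 below it by mean CPM, in replicate 1 (blue circles) and replicate 2 (orange triangles), with the mean and SD (n = 2) in black. The bars of Mir137 span those of most neighbours, and Mir191, with 11485 and 14484 CPM, is above it in both libraries.

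The genes whose levels over both libraries were most like those of Mir137 were Mir29a, Mir23a, Mir328, Mir330 and Mir99b. Likeness was the Euclidean distance of log2 CPM over the 2 libraries among the 401 detected genes. Mir29a was nearest at a distance of 0.126, followed by Mir23a at 0.190. Mir328 was at 0.310, Mir330 at 0.325 and Mir99b at 0.345. With 2 libraries this measures level more than pattern. Mir23a shares 20 letters or more in a row with another miRNA gene, so its count may leave out reads that could not be placed.

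Among counted reads, Mir137 was 1 of the 3 leading genes of the list of neuron-enriched miRNAs. The list has 22 genes, of which 20 were detected. Of the 22 genes, 16 share 20 letters or more in a row with another miRNA gene. Their counts may leave out multimapping reads, so the place and share of Mir137 may be too high. Mir137 made up 24.6% of the list's counts in replicate 1 (Wilson 95% interval 24.3 to 24.9) and 23.9% in replicate 2 (23.7 to 24.1), a mean of 24.2% ± 0.550 (SD, n = 2). The other 21 genes reached 26607 CPM (replicate 1) and 38843 CPM (replicate 2) together, but the net difference lay in Mir128-1. Without Mir128-1 the remaining 20 genes had 22089 CPM (replicate 1) and 21937 CPM (replicate 2), and the share of Mir137 was 28.3% and 35.7%. Within that near-equal sum, genes moved in both directions. Mir128-2 had 1113 and 3034 CPM, whereas Mir138-1 had 4809 and 2633 CPM. The 5 single-copy genes other than Mir137 had 12308 and 12651 CPM.

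Of the 21 other genes, 18 lay below Mir137 beyond the replicate spread, counting a 0 as 3 counts. The other three were Mir132, Mir128-1 and Mir138-1. Mir132, which neuronal activity induces and which promotes dendrite growth, stood at 11112 CPM (replicate 1) and 10719 CPM (replicate 2). Mir137 was 0.783-fold of Mir132 in replicate 1 and 1.13-fold in replicate 2. Mir128-1, of a microRNA that restrains neuronal excitability in mouse, changed order with Mir137 in the same 2 libraries, at ratios of 1.93-fold and 0.720-fold. Mir138-1 belongs to a microRNA known from rat neurons to limit dendritic spine size. It had 4809 and 2633 CPM, below Mir137 in both libraries, but the ratios of 1.81-fold and 4.62-fold differed too much to meet the rule.

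Among the single-copy genes of the list other than Mir132 the distances were wide. Mir137 exceeded Mir153, at 410 and 1202 CPM, by 21.2-fold in replicate 1 and 10.1-fold in replicate 2. It exceeded Mir134, known from rat hippocampal neurons to limit spine size through Limk1, by 17.1-fold and 28.8-fold, at 509 and 423 CPM for Mir134. Mir212, which is transcribed together with Mir132, had 258 and 296 CPM, and Mir137 was 33.7-fold and 41.1-fold higher. Mir135b was at 18.1 and 11.4 CPM. These 4 genes and Mir132 are the other genes of the list without a numbered copy.

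Apart from the Mir128 and Mir138 genes, the multi-copy genes of the list stood far lower than Mir137, and their counts cover placed reads only. Mir137 is 1 of 6 genes of the list that share no run of 20 letters with another miRNA gene, and the other 16 do. Mir129-2 had 691 and 972 CPM, and its ratio to Mir137 was the steadiest of the list, Mir137 being 12.6-fold and 12.5-fold higher. Mir9-3, from a microRNA of neural progenitors, had 99.9 and 92.9 CPM. The Mir124a genes, from the best-known neuronal microRNA, had between 0 and 11 counts per gene and library. The part that multimapping reads, which were left uncounted, have in these distances was not tested.

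**Figure D4:**
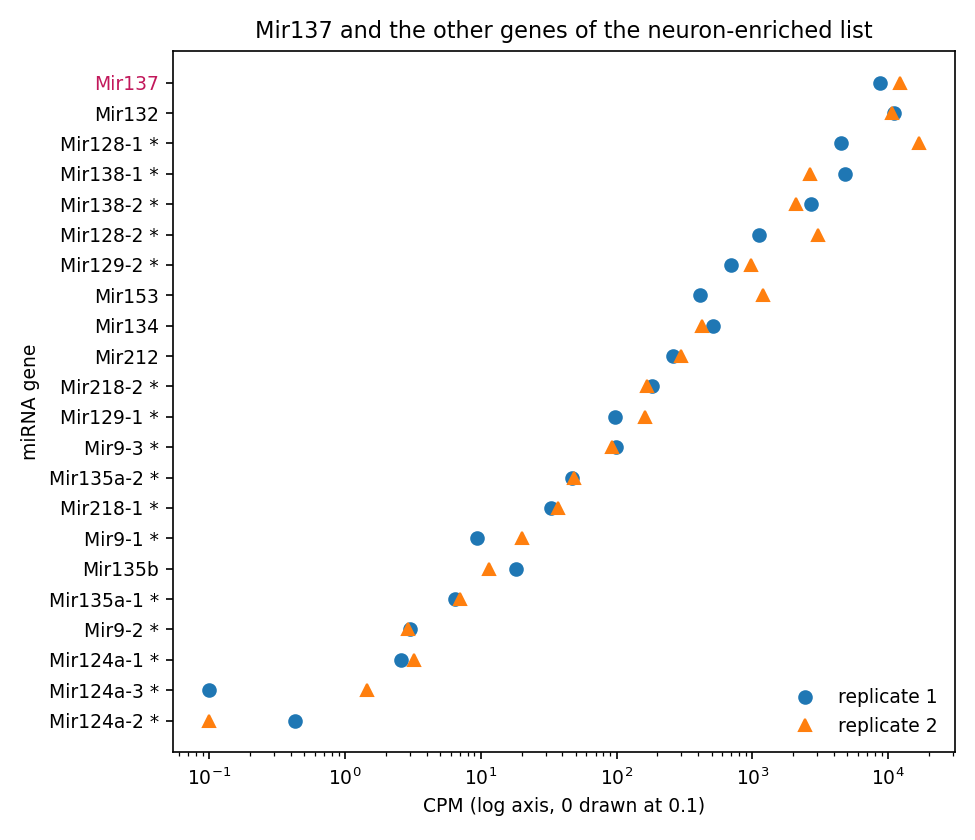
CPM on a log axis of Mir137 and the other 21 genes of the neuron-enriched list, in replicate 1 (blue circles) and replicate 2 (orange triangles), with 0 drawn at 0.1 CPM. An asterisk marks genes that share 20 letters or more in a row with another miRNA gene. Mir132 and Mir128-1 lie on both sides of Mir137, and the Mir124a genes lie at 3.22 CPM or less.

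A second list held microRNAs known from mouse work on adult neural stem cells and newborn neurons, with 15 genes, of which 10 were detected. Mir137 was the third of them by mean CPM of counted reads. Only 7 of the 15 are single-copy genes. The others are the Mir124a, Mir9 and Mir19b genes, whose counts leave out multimapping reads, so their place in this order may be too low. Mirlet7b, which acts on the stem cell receptor gene Nr2e1 (Tlx), had 101513 and 107896 CPM, and Mir137 was 0.0857-fold and 0.113-fold of it. Mir132, already described, was within the spread. Mir106b, of a cluster that acts in neural progenitor proliferation, had 347 and 424 CPM, 25.0-fold and 28.7-fold below Mir137. Its cluster partner Mir25 was at 29.7 and 55.4 CPM. Mir184, which promotes stem cell proliferation through Numbl, was at 55.1 and 53.3 CPM. Mir19a, which acts on the migration of newborn neurons, had 0 counts in replicate 1 and 3 counts in replicate 2.

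Although no other mature sequence had the seed of miR-137-3p, 15 shared at least 5 letters in a row with it within bases 2 to 8. They come from 16 genes, of which 9 were detected. The best known are of the miR-25 and miR-92 family, whose products carry AUUGC at bases 2 to 6, where miR-137-3p has it at bases 3 to 7. They are shown because this family holds the shifted run, with the seed in capitals.
mmu-miR-137-3p: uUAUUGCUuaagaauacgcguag
mmu-miR-92b-3p: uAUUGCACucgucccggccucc
mmu-miR-92a-3p: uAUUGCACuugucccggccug
mmu-miR-25-3p: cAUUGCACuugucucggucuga
mmu-miR-32-5p: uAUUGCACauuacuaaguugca

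By counted reads, Mir137 was more abundant than every one of the 9 detected genes in both libraries. Mir92b came nearest, with 6214 CPM (replicate 1) and 6504 CPM (replicate 2). Mir137 was 1.40-fold and 1.87-fold higher, which exceeded the replicate spread. Mir92-1, which gives miR-92a-3p together with Mir92-2, had 323 and 448 CPM, and Mir137 was 26.9-fold and 27.2-fold higher. Reads of miR-92a-3p that mapped to both genes are in neither count, so these ratios do not give the level of miR-92a-3p. Mir32 was at 12.9 and 12.6 CPM. The longest shared run, 6 letters, was with miR-7067-3p, whose gene had 0 counts in replicate 1 and 3 counts in replicate 2. Whether these microRNAs share targets was not measured.

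Mir137 was higher in replicate 2 than in replicate 1. With TMM library sizes the ratio was 1.37-fold (exact 95% interval 1.35 to 1.40), a log2 ratio of 0.46, and the two-sided exact binomial p adjusted over the 401 detected genes by Benjamini-Hochberg was 1.61e-310. The test compares 2 libraries by their counting error, not animals or conditions. At this depth such a call is common. By the same test 204 of the 401 detected genes (50.9%) differed in either direction, and 113 (28.2%) were higher in replicate 2.

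The size of the difference was not unusual. Of the detected genes 131 (32.7%), Mir137 included, were as far or farther from equality in either direction, and the median difference was 1.26-fold. Among the 92 genes at 1000 CPM or more, 27 (29.3%) were as far or farther. The biological coefficient of variation between the libraries was 29.9%, from the common dispersion of edgeR over the detected genes. The coefficient of variation of Mir137 alone was 23.5% (n = 2). All 10 of its neighbours in level were called different between the libraries too, in one direction or the other. The share called was 50.9% over all detected genes and 65.9% with the filter at 10 CPM or more in both libraries. At the far higher counts of the neighbours small differences pass the test, so these calls do not set them apart.

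Within the neuron-enriched list, Mir137 included, 8 of the 20 detected genes (40.0%) were called higher in replicate 2, 4 (20.0%) lower, and 8 were not called. Over all 401 detected genes the shares were 28.2% higher and 22.7% lower. The median log2 ratio of these genes was 0.10, against 0.03 over all detected genes. Mir129-2 was 1.38-fold higher in replicate 2, much like Mir137. The other genes of the list that differed most between the libraries were Mir128-1 at 3.68-fold, Mir153 at 2.88-fold, Mir128-2 at 2.68-fold and Mir9-1 at 2.07-fold higher in replicate 2. Of those called lower, Mir138-1 was farthest from equality, at 0.538-fold.

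**Figure D5:**
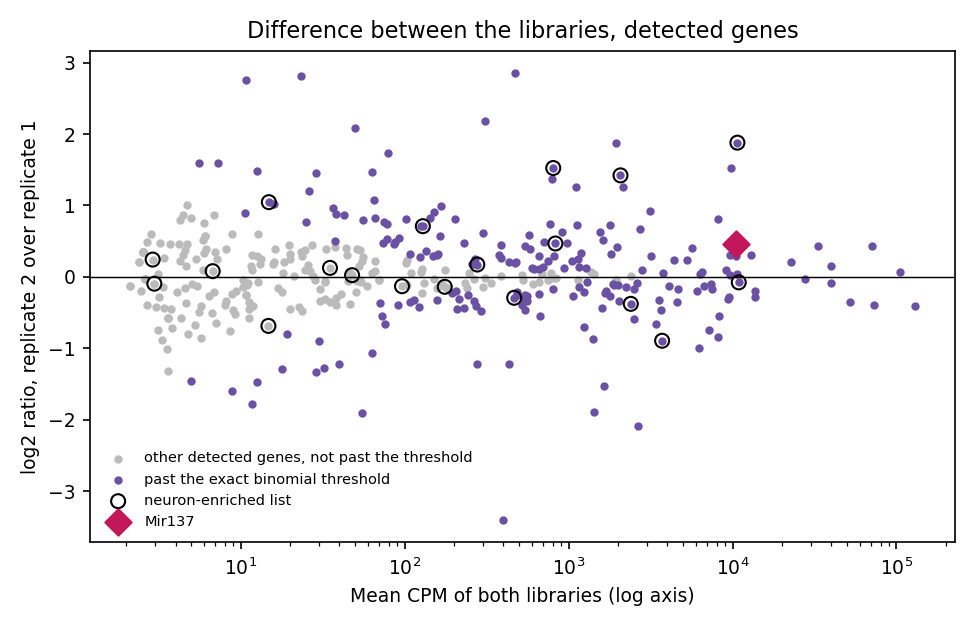
Log2 ratio of replicate 2 over replicate 1 with TMM library sizes against mean CPM (log axis) for the 401 detected miRNA genes, where purple marks genes past the threshold of the exact binomial test and grey the others, the neuron-enriched list ringed and Mir137 as a red diamond. Mir137, at a log2 ratio of 0.46, lies inside the cloud of the other genes.

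Markers of other cell types moved between the libraries as well, in both directions. Of 32 listed markers 31 were in the tables and 25 were detected, and their sum was 30267 CPM (replicate 1) and 26111 CPM (replicate 2). Mir126b and Mir145b were at 0 in both libraries. Those of oligodendrocytes added up to 4367 CPM (replicate 1) and 2683 CPM (replicate 2), and those of erythrocytes to 1922 and 1149 CPM. The thalamic and sensory list, chosen as a possible sign of neighbouring tissue, summed to 133 and 42.8 CPM. Its gene Mir96 had only 2 counts and 1 count, and whether such tissue was present was not tested. The endothelial list, carried by Mir126a alone, was the largest part of the marker sum at 14889 and 12474 CPM. The oligodendrocyte, erythrocyte, thalamic and sensory, and endothelial sums were thus lower in replicate 2, where Mir137 was higher. The erythrocyte sum followed Mir451a, at 1807 and 1007 CPM. Mir144 went the other way, at 94.7 and 121 CPM, and Mir486 had 20.7 and 21.4 CPM. The oligodendrocyte sum mostly followed Mir219a-2, at 2447 and 865 CPM, as Mir338 had 1911 and 1811 CPM. These sums therefore do not show that all markers of a list moved together. Microglial and leukocyte markers summed to 1262 CPM (replicate 1) and 1601 CPM (replicate 2), with 2 genes called higher in replicate 2 and 1 lower. Mir150 had 569 and 966 CPM, whereas Mir146 had 585 and 497 CPM. Mural and smooth muscle markers had 6456 and 6935 CPM. For epithelial markers, those of choroid plexus included, the sums were nearly equal at 1237 and 1226 CPM. Yet 4 of these genes were called higher in replicate 2 and 2 lower. Mir204 had 590 and 738 CPM, whereas Mir34c had 382 and 167 CPM. What part the makeup of the samples has in the difference of Mir137 was not tested.

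Set against the counted reads of these markers, Mir137 alone exceeded the oligodendrocyte sum 1.99-fold (replicate 1) and 4.54-fold (replicate 2). That sum may be too low, as the counts of the multi-copy genes Mir219a-1 and Mir219a-2 leave out multimapping reads. It exceeded the summed microglia and leukocyte list 6.89-fold and 7.60-fold. The endothelial gene Mir126a was higher than Mir137 in both libraries, but the ratios of 0.584 and 0.976 were not beyond the replicate spread.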

How the data were processed

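MicroRNA-seq counts of 2 hippocampus libraries were used. The deposited values were raw read counts per miRNA gene on assembly mm10, per the labels, with annotation M21 per the deposited file descriptions; the aligner and the counting program are not given in the sources used here. All 2202 identifiers matched M21. The same-strand counts were used, without the 4 rows that name no gene (36.1% and 34.1% of 6441333 and 10003856 reads were on miRNA genes in replicates 1 and 2). The rows left out held 16.2% and 15.1% unmapped, 42.6% and 46.0% multimapping, 5.16% and 4.70% no-feature and 0% ambiguous reads. 

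Counts were scaled to 1000000 per library. Libraries were compared by a two-sided exact binomial test (SciPy 1.17.1) with TMM sizes from edgeR 4.0.16 and Benjamini-Hochberg adjustment at 0.05. It was checked on simulated counts that held counting error only, with known library sizes. That check does not cover spread between replicates or the TMM sizes. DESeq2 1.42.0 gave alternative size factors. The exact binomial test replaces edgeR's quasi-likelihood test, which needs a contrast between replicated groups. Log2 ratios between the libraries used 0.5 added to each count. Log2 ratios and distances within a library used CPM with nothing added, apart from a 0 counted as 3 counts where stated. Hairpins were folded with ViennaRNA 2.7.2. Sequences came from RefSeq (GRCm38.p6), whose hairpin equals that of M21. Over 448 genes with 10 or more summed counts the libraries differed beyond sampling noise (chi-square 132510, 447 degrees of freedom).

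The genes named are Mir137, 5 neighbours on each side by mean CPM, the 5 nearest in level, the lists, the marker genes, the nearest miRNA genes and the products with a similar seed. Mir137, the lists and the rules were chosen with earlier results of these data known. Mir486b was not in the tables. Alternatives were the column for both strands, other totals and size factors, other filters, multi-copy genes left out, Mir128-1 left out (chosen after seeing the data), and each replicate left out.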

Additional observations from a re-analysis of the deposited data

How the results depend on the processing

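Of 29 alternatives 23 left their result on its side of the threshold or within its spread, and none turned a direction. With 2 replicates, leaving out 1 always keeps the mean and the share within 1 SD. Those alternatives, counted among the 23, could not have moved and are no check. The mean of Mir137 was 18272 CPM with the 5 leading genes removed from the total and 3645 per 1000000 reads with all reads of the library as the total, by construction of these totals. Without multi-copy genes, 4 of the 5 genes left on the neuron-enriched list lay below Mir137 beyond the spread, and Mir137 made up 45.2% of the list, since 16 genes leave it. Without Mir128-1, left out after its values were seen, the share was 32.0%. Leaving out each replicate gave means of 8697 to 12170 CPM, ranks of 16 to 24, 20 neuron-enriched genes below Mir137 in either library, and shares of 23.9% to 24.6%. The ratio between the libraries ran from 1.31-fold to 1.40-fold over the other scalings, and the count of genes differing from 184 to 210. The share differing moved with the filter, at 29.4% of 715 genes with no filter and 65.9% of 299 genes at 10 CPM or more, against 50.9% of 401. No paired analysis was possible because there is only 1 group. The number of libraries, 2, limits every spread given here.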

Other observations

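Mir137 led chromosome 3 among counted reads. Of the 97 miRNA genes listed on that chromosome 12 were detected, and Mir137 held a mean of 54.4% of the summed CPM of all 97. Multi-copy genes such as Mir16-2, Mir9-1 and Mir124a-2 also lie on chromosome 3, and their counts leave out multimapping reads. The lead and the share of Mir137 therefore hold for counted reads only, and the share may be too high. Mir92b came second at 6359 ± 205 CPM (SD, n = 2), then Mir760 at 1588 ± 316 CPM, Mir186 at 231 ± 55.8 CPM and Mir15b at 180 ± 11.3 CPM. Mir186 stood at 191 CPM (replicate 1) and 270 CPM (replicate 2), and Mir137 exceeded it 45.5-fold and 45.1-fold.

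The annotation holds 3 starts of Gm26871 transcripts close to the end of the hairpin. Gm26871-205 starts at position 118433922 of chromosome 3, 1 base before the last base of the 3p product. Gm26871-203 starts 4 bases after the hairpin and Gm26871-204 starts 37 bases after it. The libraries held RNA of under 30 nt, and levels of Gm26871 itself were not measured here.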
